A study of Mus musculus with 6 samples.

Results

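A set of 9 genes best known from neutrophils was followed through RNA-seq libraries of monocytes taken from mouse melanomas. They are S100a8, S100a9, Lcn2, Retnlg, Cxcr2, Csf3r, G0s2, Hdc and Mmp8. They were taken by symbol as a fixed list of granulocyte genes, and all 9 of the 9 were among the 18341 genes of the deposited table and among the 12824 tested. CPM values are reads scaled to a common library total, and testing required an average of at least 1 CPM.

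C57BL/6 mice carried subcutaneous tumours of B16.F10, a melanoma cell line of this strain, made either from cells overexpressing BAFF (B cell activating factor) or from control cells. Monocytes were collected on day 13, which gave 3 BAFF tumour libraries and 3 control tumour libraries. No source used here gives the promoter behind BAFF, the number of clones, the sex and age of the mice, the sorting markers, any pooling, or whether each library is a mouse of its own. The p-values therefore measure only the spread among these 6 libraries, which may be technical. One label gives the melanoma line as the source of the RNA, but monocyte markers were abundant in each library, as given below. One CPM stood for 9.65, 27.6 and 10.1 reads in BAFF tumour libraries 1, 2 and 3, and for 27.3, 7.12 and 4.72 reads in control tumour libraries 1, 2 and 3. Control tumours 2 and 3 stood apart. The listed genes held 50.2% and 39.8% of their CPM total, against 61.1% to 66.1% in the BAFF tumour libraries and 65.6% in control tumour 1, so most genes read low there on the deposited scale. The listed entry CT010467.1 had 27016.5 and 43052.2 CPM in control tumours 2 and 3, against 299 to 5880 CPM in the other libraries. What set these 2 libraries apart was not tested. The median log2 fold change of all tested genes, BAFF tumour over control tumour, was 0.23 as deposited and 0.01 after median-of-ratios size factors.

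Neutrophils are short-lived phagocytes that leave the bone marrow filled with granules of antimicrobial proteins and proteases. They mature under granulocyte colony stimulating factor, which acts through the receptor encoded by Csf3r, and they leave the marrow and enter tissue along CXC chemokine gradients read by Cxcr2. Neutrophils and classical monocytes descend from a shared myeloid progenitor, and monocytes transcribe several of the same genes, among them S100a8, S100a9 and Csf3r, at a lower level. In bulk libraries such as these, fewer cells of a type and less RNA per cell cannot be told apart.

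The upstream sequences of S100a8, S100a9 and Lcn2 are shown because the levels of these 3 genes put the libraries in nearly the same order, with that of Mmp8 set beside them as a gene that was almost level between the groups relative to monocyte markers. Each is the 250 bases before the RefSeq gene start on GRCm38.p6, read 5′ to 3′ on the strand of the gene. Capitals mark a match to TTNNGCAA on either strand, the letters of a simplified C/EBP site. C/EBP proteins are transcription factors of the granulocyte and monocyte lineages. S100a8 and S100a9 are neighbours on chromosome 3 and are read from opposite strands. The windows are chr3:90668821-90669070 on the plus strand for S100a8, chr3:90695722-90695971 on the minus strand for S100a9, chr2:32387740-32387989 on the minus strand for Lcn2 and chr9:7558179-7558428 on the plus strand for Mmp8.
S100a8: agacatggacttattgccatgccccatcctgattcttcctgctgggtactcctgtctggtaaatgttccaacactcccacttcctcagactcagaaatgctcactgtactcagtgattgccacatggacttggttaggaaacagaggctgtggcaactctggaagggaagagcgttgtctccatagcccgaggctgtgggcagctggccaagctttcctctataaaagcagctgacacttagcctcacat
S100a9: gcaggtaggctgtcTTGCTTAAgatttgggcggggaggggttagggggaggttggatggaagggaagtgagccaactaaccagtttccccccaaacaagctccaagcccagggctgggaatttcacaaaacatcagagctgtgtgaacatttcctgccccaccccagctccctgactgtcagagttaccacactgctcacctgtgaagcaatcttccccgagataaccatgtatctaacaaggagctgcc
Lcn2: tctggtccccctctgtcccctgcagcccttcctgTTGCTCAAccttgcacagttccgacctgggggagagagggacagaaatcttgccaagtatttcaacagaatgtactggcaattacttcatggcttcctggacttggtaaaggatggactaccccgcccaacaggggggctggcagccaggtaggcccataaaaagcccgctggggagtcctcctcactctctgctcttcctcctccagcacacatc
Mmp8: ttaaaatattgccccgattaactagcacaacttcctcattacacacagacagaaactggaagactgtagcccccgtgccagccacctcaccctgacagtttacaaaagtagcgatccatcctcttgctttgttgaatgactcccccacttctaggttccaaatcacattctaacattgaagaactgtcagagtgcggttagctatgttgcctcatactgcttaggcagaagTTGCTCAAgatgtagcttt
The match began 236 bases before the start of S100a9, 216 before that of Lcn2 and 19 before that of Mmp8, and the S100a8 window held none. Retnlg held 1 too, which made 4 of the 9 genes, all of which had a RefSeq window. Of all 32851 RefSeq windows of this length 9.56% held the letters. A match is a description of the letters and not evidence of binding.

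S100a8 and S100a9 encode the 2 subunits of calprotectin, the most abundant cytosolic protein of neutrophils. S100a8 had 27.5, 13.5 and 7.80 CPM in BAFF tumour libraries 1, 2 and 3, and 16.3, 2.95 and 4.23 CPM in control tumour libraries 1, 2 and 3. BAFF tumour 1 was the highest library, control tumour 1 was above BAFF tumours 2 and 3, and the groups overlapped. The values rest on 265, 372 and 79 reads in BAFF tumour libraries and 446, 21 and 20 reads in control tumour libraries, so the 95% Poisson interval in control tumour 2 ran down to 1.83 CPM, for counting error only. S100a9 had 53.2, 26.4 and 14.02 CPM in BAFF tumour libraries, against 29.7, 4.21 and 14.2 CPM in control tumour libraries. It kept the library order of S100a8 except that BAFF tumour 3 and control tumour 3 changed places. The ratio of S100a9 to S100a8 within a library was 1.94, 1.96 and 1.80 in BAFF tumour libraries and 1.82, 1.43 and 3.35 in control tumour libraries, where the last 2 rest on the few reads of control tumours 2 and 3.

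Both calprotectin genes rose in the limma fit on deposited values. S100a8 averaged 16.3 ± 10.1 CPM in BAFF tumour libraries, against 7.83 ± 7.4 CPM in control tumour libraries (SD, n = 3 each). Its log2 fold change was 1.11 with an SE of 0.31 (limma adjusted p = 0.0125). S100a9 averaged 31.2 ± 20.01 CPM in BAFF tumour libraries, against 16.05 ± 12.9 CPM in control tumour libraries, and its log2 fold change was 1.07 with an SE of 0.32 (limma adjusted p = 0.0203). That fit gave genes of like abundance a common SE, since its prior degrees of freedom came out infinite. The own SD of these genes between libraries of a group was 1.00 for S100a8 and 1.12 for S100a9 on the log2(CPM + 1) scale. Retnlg, the steadiest of the 9 on that scale, had 0.37. After size factors, where a gene's own spread entered the SE, neither passed (limma adjusted p = 0.176 for S100a8 and 0.310 for S100a9). The exact two-sided permutation test of the group means, whose smallest possible p here is 0.1, gave p = 0.3 for S100a8 and p = 0.5 for S100a9.

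Lcn2 encodes lipocalin 2, a secondary granule protein that sequesters bacterial siderophores. It had 10.05, 1.70 and 1.48 CPM in BAFF tumour libraries, against 2.30, 0.421 and 0.212 CPM in control tumour libraries. BAFF tumour 1 stood well above the other 5 libraries, and control tumour 1 was above BAFF tumours 2 and 3. Control tumours 2 and 3 held 3 and 1 reads, so their levels are barely above detection. Lcn2 rose as deposited (log2 fold change 1.23 ± 0.30, SE; limma adjusted p = 0.00222), and not after size factors (1.17 ± 0.49; limma adjusted p = 0.128). The single read of control tumour 3 had a 95% Poisson interval of 0.00536 to 1.18 CPM, so the range of Lcn2 between libraries is not well fixed. Its own SD between libraries of a group was 1.02 on the log2(CPM + 1) scale, where S100a8 had 1.00 and S100a9 1.12. Adding 1 narrows the spread of a gene this low. In CPM the highest library was 47.5 times the lowest for Lcn2, against 9.31 times for S100a8 and 12.6 times for S100a9.

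Cxcr2 encodes the chemokine receptor that draws neutrophils to CXCL1 and CXCL2. It had 6.12, 3.19 and 5.43 CPM in BAFF tumour libraries, against 3.62, 0.983 and 1.69 CPM in control tumour libraries. The groups overlapped, with control tumour 1 above BAFF tumour 2. Cxcr2 rose as deposited (log2 fold change 0.99 ± 0.31, SE; limma adjusted p = 0.0291) and did not pass after size factors (0.82 ± 0.27; limma adjusted p = 0.0624).

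Csf3r encodes the receptor for granulocyte colony stimulating factor. It had 70.1, 86.95 and 101.8 CPM in BAFF tumour libraries, against 81.8, 44.1 and 35.98 CPM in control tumour libraries. BAFF tumour 3 was the highest library and BAFF tumour 1, the highest for S100a8, S100a9 and Lcn2, was only the fourth. Csf3r did not pass as deposited (log2 fold change 0.74 ± 0.32, SE; limma adjusted p = 0.190). After size factors it passed (0.49 ± 0.14; limma adjusted p = 0.0354), and each BAFF tumour library was then above each control tumour library.

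G0s2 encodes an inhibitor of the triglyceride lipase ATGL that is abundant in neutrophils and fat cells. It had 12.6, 7.58 and 6.22 CPM in BAFF tumour libraries, against 4.79, 2.53 and 1.91 CPM in control tumour libraries. The groups did not overlap. G0s2 averaged 8.81 ± 3.4 CPM in BAFF tumour libraries, against 3.08 ± 1.5 CPM in control tumour libraries (SD, n = 3 each). Its log2 fold change was 1.28 ± 0.31 as deposited (SE; limma adjusted p = 0.00215) and 1.09 ± 0.23 after size factors (limma adjusted p = 0.00720).

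Hdc encodes histidine decarboxylase, which makes histamine in mast cells, basophils and immature myeloid cells. It had 27.99, 32.8 and 20.8 CPM in BAFF tumour libraries, against 19.6, 8.28 and 9.74 CPM in control tumour libraries. The groups did not overlap, though control tumour 1 lay just below BAFF tumour 3. Hdc averaged 27.2 ± 6.04 CPM in BAFF tumour libraries, against 12.5 ± 6.2 CPM in control tumour libraries. Its log2 fold change was 1.13 ± 0.32 as deposited (SE; limma adjusted p = 0.0118) and 0.89 ± 0.19 after size factors (limma adjusted p = 0.00800). Of 12 markers of mast cells and basophils only Kit, Gata2 and Cd200r3 were in the table. Their summed level was 2.46 to 3.11 CPM in BAFF tumour libraries, against 1.69 to 4.06 CPM in control tumour libraries. Kit held most of it and did not pass (limma adjusted p = 0.805). Cd200r3, below the level for testing, had 0.726, 0.435 and 0.296 CPM in BAFF tumour libraries, against 0.183, 0 and 0 CPM in control tumour libraries. Gata2, also below that level, had 0.104, 0.435 and 0 CPM against 0.110, 0 and 0.212 CPM. Whether mast cells or basophils contributed to Hdc was not tested. The other 9 markers were not analysed here.

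Retnlg encodes a resistin-like protein of mouse granulocytes. It had 8.40, 9.35 and 5.33 CPM in BAFF tumour libraries, against 4.57, 4.49 and 2.54 CPM in control tumour libraries. The groups did not overlap, but Retnlg missed the threshold as deposited (log2 fold change 0.84 ± 0.31, SE; limma adjusted p = 0.0984) and only just passed after size factors (0.63 ± 0.20; limma adjusted p = 0.0499). Its paralog Retnla, a product of alternatively activated macrophages, had 4.04, 5.07 and 6.42 CPM in BAFF tumour libraries, against 12.0, 25.98 and 14.8 CPM in control tumour libraries, and fell (log2 -1.54 ± 0.31; limma adjusted p = 0.000154). How reads shared by these related genes were divided in the authors' counting is stated in no source used here.

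Mmp8 encodes neutrophil collagenase, a protease of the secondary granules. It had 63.02, 63.8 and 39.7 CPM in BAFF tumour libraries, against 55.3, 31.6 and 28.8 CPM in control tumour libraries. Control tumour 1 was above BAFF tumour 3. Mmp8 passed on neither scale (log2 fold change 0.54 ± 0.32, SE, limma adjusted p = 0.403 as deposited, and 0.29 ± 0.16, adjusted p = 0.248 after size factors).

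**Figure D1:**
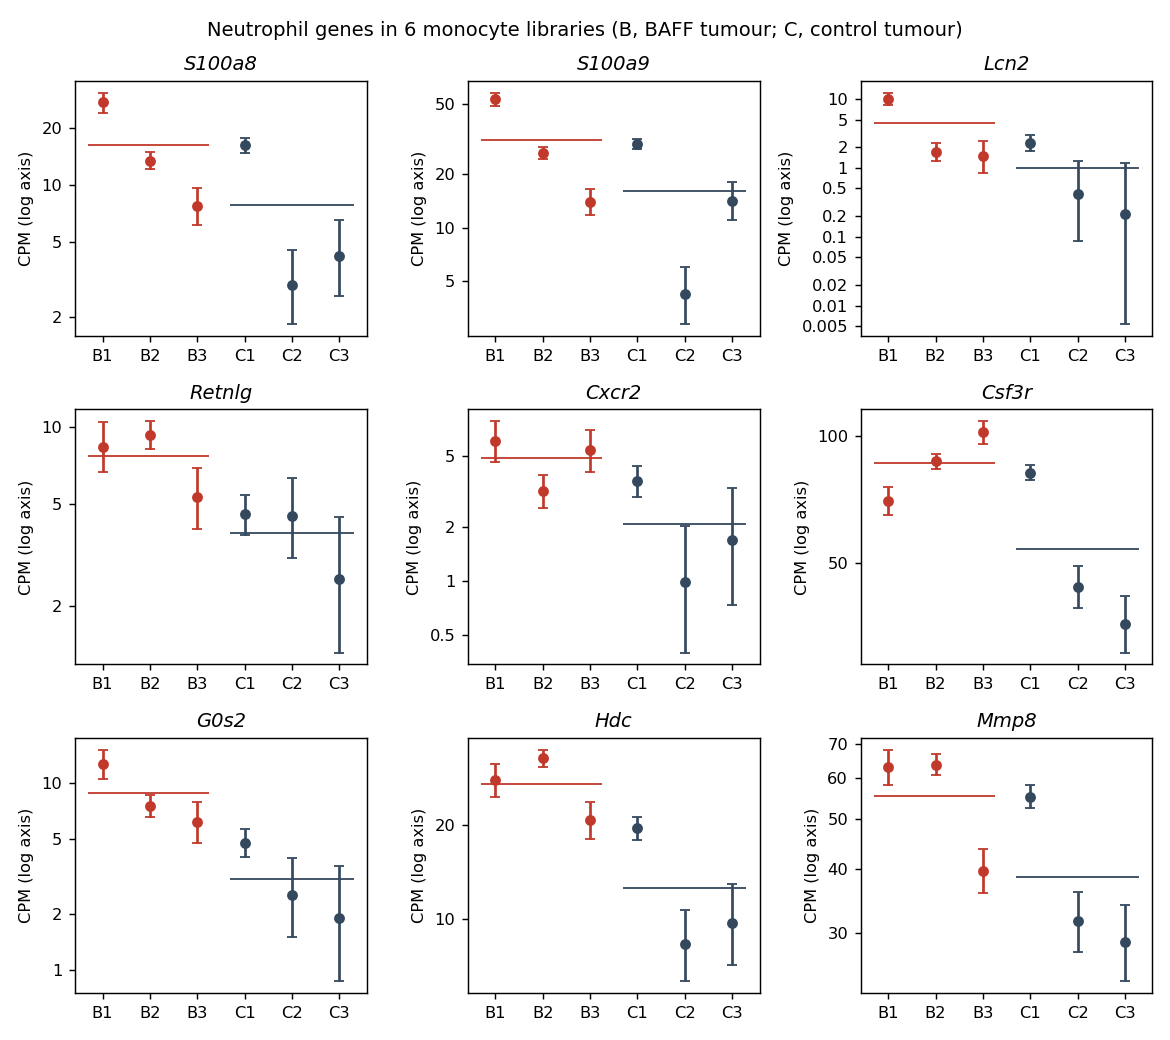
CPM of each of the 9 genes on a log axis in BAFF tumour libraries 1 to 3 (B1 to B3, red) and control tumour libraries 1 to 3 (C1 to C3, dark blue), with 95% Poisson intervals of the reads as error bars and group means as lines. The groups are apart for G0s2, Hdc and Retnlg, while C1 reaches into the range of the BAFF tumour libraries for the other 6 genes.

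Counted together, 6 of the 9 genes rose on the deposited scale (S100a8, S100a9, Lcn2, Cxcr2, G0s2 and Hdc), 0 fell, and 3 did not pass. Of all tested genes 1.81% rose and 3.5% fell on that scale. After size factors 4 of the 9 rose (Retnlg, Csf3r, G0s2 and Hdc) and 0 fell, while 7.18% of all tested genes rose and 9.91% fell. G0s2 and Hdc were the 2 that passed on both. Each BAFF tumour library lay above each control tumour library for 3 of the 9 as deposited (Retnlg, G0s2 and Hdc), against 11.4% of all tested genes, and for 4 after size factors, against 17.3%. The median log2 fold change of the 9 was 1.07 as deposited, beside 0.23 for all tested genes, and 0.83 after size factors, beside 0.01. On the deposited scale the number of calls changed with the library left out, for the 9 genes and for all genes. Without BAFF tumour 1 limma called 0 of the 9, where 0.273% of all tested genes rose. At an unadjusted p under 0.05 that fit had 4 of the 9 and 1211 of the 12824 tested genes. Without control tumour 2 limma again called 0 of the 9, where 0.398% of all tested genes rose. The unadjusted counts there were 4 of the 9 and 1231 of all tested genes. Without BAFF tumour 2 limma called 2, where 0.265% rose, and without BAFF tumour 3 it called 4, where 0.304% rose. Without control tumour 3 it called 6, as with all 6 libraries, where 249 of the 12824 tested genes rose. Without control tumour 1 it called all 9, but 36% of all tested genes rose in that fit too, so these counts say little about the 9 genes by themselves. The fold changes differed in how far they depended on BAFF tumour 1. Without it the log2 fold change was 0.67 for S100a8, 0.59 for S100a9 and 0.54 for Lcn2, while Hdc stood at 1.10, G0s2 at 1.01 and Cxcr2 at 0.83, nearer to their values with all 6 libraries. Without control tumour 2 it was 0.69 for S100a8 and 0.38 for S100a9. A fit without control tumours 2 and 3 together was chosen after seeing the data. Control tumour 1 alone then stood for the controls and was assumed to vary like the other libraries. In that fit S100a8 and S100a9 were lower in BAFF tumour libraries (log2 fold change -0.17 and -0.13). With any 1 of the 6 libraries left out on the deposited scale, G0s2 passed in 4 of 6 fits and Hdc in 2. After size factors both passed in all 6 (highest limma adjusted p = 0.0256 for G0s2 and 0.0494 for Hdc), in fits where 510 to 774 of all tested genes rose.

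**Figure D2:**
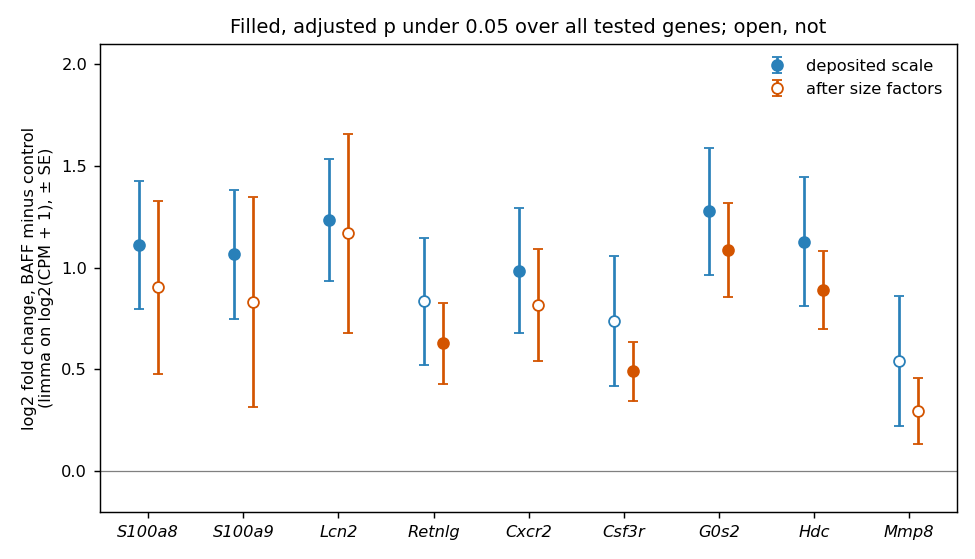
Log2 fold change of each gene, BAFF tumour minus control tumour libraries, from limma on log2(CPM + 1) with SE bars, on the deposited scale (blue) and after size factors (orange), filled where the adjusted p over all tested genes was under 0.05. All 9 lie above 0 on both scales, and G0s2 and Hdc are filled on both.

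Read library by library, the 9 genes moved together only in part, and BAFF tumour 1 was where most of them stood high at once. BAFF tumour 1 was the highest library for 5 of the 9 genes (S100a8, S100a9, Lcn2, Cxcr2 and G0s2), against 11.2% of all tested genes. BAFF tumour 2 was highest for Retnlg, Hdc and Mmp8, and BAFF tumour 3 for Csf3r. The lowest library was control tumour 2 for 4 genes and control tumour 3 for 5, but 82.6% of all tested genes had their lowest value in one of these 2 libraries. For each pair of genes, the 15 pairs of libraries were then checked for whether both genes put them in the same order. The 36 gene pairs matched on a median of 12 library pairs, with 7 as the lowest and 14 as the highest. S100a8 matched S100a9 on 14 and Lcn2 on 14. Retnlg matched G0s2, Hdc and Mmp8 on 14 each. Csf3r stood apart from the calprotectin genes, and matched S100a9 on 7 and S100a8 on 8.

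Much of this order was common to all genes on the deposited scale. Any 2 of the tested genes matched on a mean of 10.04 of the 15 library pairs as deposited, where the 9 genes had 11.7. After size factors the means were 11.6 for the 9 and 7.50 for all tested genes. Within groups, where the difference between BAFF and control tumours plays no part, the means were close on the deposited scale, at 4.28 of 6 library pairs for the 9 and 4.16 for all tested genes. After size factors they were 4.06 for the 9 and 3.00 for all tested genes, and relative to the monocyte markers described next 3.83 for the 9 and 3.60 for all tested genes. After size factors S100a8, S100a9, G0s2 and Mmp8 put all 6 of these in the same order as each other. Relative to monocyte markers, which give all genes of a library 1 divisor, the means over 15 library pairs were 9.89 for the 9 and 9.54 for all tested genes. These counts are a description, and the libraries behind them are the same for every pair of genes.

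**Figure D3:**
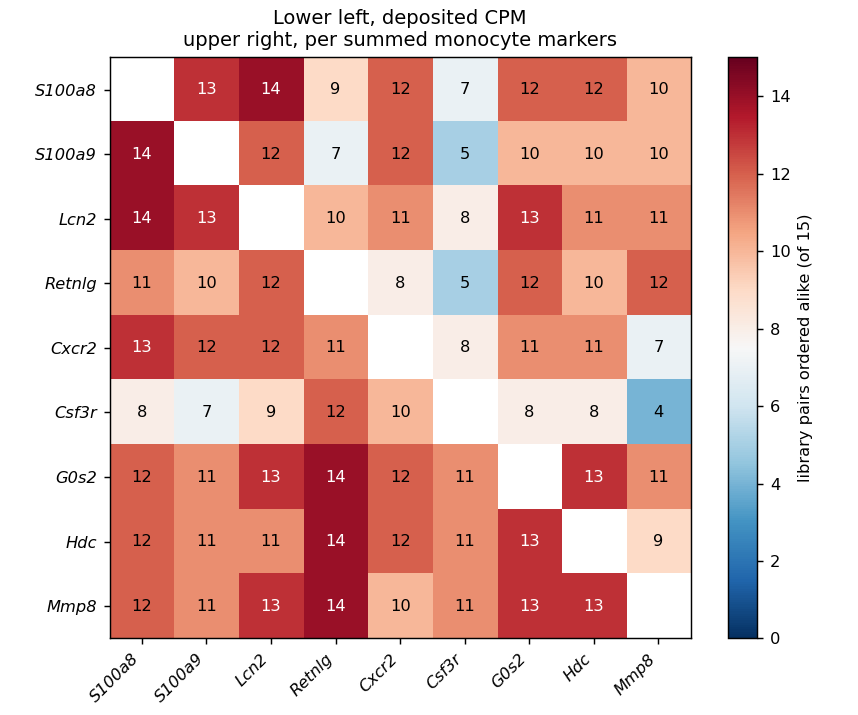
Number of the 15 library pairs that 2 genes put in the same order, on deposited CPM (lower left) and on levels relative to summed monocyte markers (upper right). The square of S100a8, S100a9 and Lcn2 holds 12 to 14 on both, and the row and column of Csf3r hold the lowest counts, down to 4 with Mmp8 in the upper right.

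A ratio within a library does not depend on the total by which the CPM was divided, so each gene was also set against the summed CPM of 8 monocyte markers (Lyz2, Itgam, Csf1r, Ly6c2, Ccr2, Cd14, Fcgr1 and Adgre1). All 8 were present in every library, and limma called 0 of them on the deposited scale. At an unadjusted p under 0.05, 2 of the 8 were higher, where 1223 of the 12824 tested genes were. After size factors 2 of the 8 rose, Cd14 (limma adjusted p = 0.00948) and Ccr2 (0.0339), where 7.18% of all tested genes rose. For 4 of the 8 each BAFF tumour library was above each control tumour library as deposited, against 11.4% of all tested genes. The sum of the 8 markers was 9318, 10863 and 9496 CPM in BAFF tumour libraries, against 9848, 5477 and 5273 CPM in control tumour libraries. Lyz2 alone held 492 to 586 of each 1000 CPM of it. Lyz2 is also among the granule genes of neutrophils listed below, so the sum is not specific to monocytes. Any neutrophil part of it was not separated. The 9 genes together amounted to 2.99%, 2.26% and 2.13% of that sum in BAFF tumour libraries and 2.21%, 1.82% and 1.88% in control tumour libraries. Csf3r and Mmp8 were the most abundant of the 9 genes in every library and weigh most in this share. The share was highest in BAFF tumour 1 and otherwise overlapped between the groups.

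Per 1000 CPM of monocyte markers the 9 genes differed in how far they varied. S100a8 stood at 2.95, 1.24 and 0.821 in BAFF tumour libraries and 1.66, 0.538 and 0.803 in control tumour libraries, and Lcn2 at 1.08, 0.157 and 0.156 in BAFF tumour libraries and 0.234, 0.0769 and 0.0401 in control tumour libraries. Mmp8 was almost level, with a mean of 5.60 ± 1.3 in BAFF tumour libraries and 5.61 ± 0.15 in control tumour libraries (SD, n = 3 each). Csf3r stood at 8.75 ± 1.7 in BAFF tumour libraries and 7.73 ± 0.79 in control tumour libraries, with overlapping groups. Its highest library was 1.57 times its lowest, against 7.42 times for S100a9 and 5.48 times for S100a8. On this measure 7 of the 9 genes were highest in BAFF tumour 1, against 6.53% of all tested genes. After size factors it was 6 of 9, against 16.3%. The groups were apart for 2 relative to monocyte markers, against 1.94% of all tested genes with every BAFF tumour library above every control tumour library. They were G0s2, at 0.903 ± 0.39 in BAFF tumour libraries and 0.436 ± 0.066 in control tumour libraries, and Hdc, at 2.74 ± 0.47 in BAFF tumour libraries and 1.78 ± 0.25 in control tumour libraries.

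**Figure D4:**
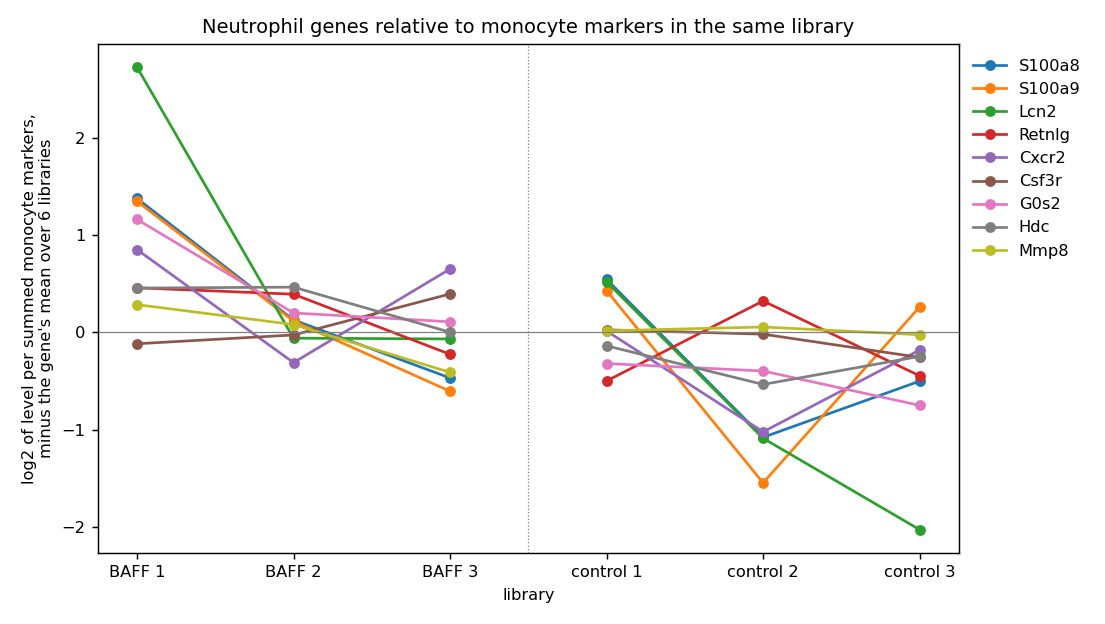
Level of each gene relative to the summed monocyte markers of its library, on the log2 scale and minus the gene's own mean over the 6 libraries, with lines that only join the values of 1 gene within a group. Lcn2, S100a8, S100a9, G0s2, Cxcr2, Retnlg and Mmp8 are highest in BAFF tumour 1. Mmp8 and Csf3r vary least.

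Further neutrophil genes were taken from 4 lists of granule, surface and stefin genes. Of 62 entries 46 were in the table and 36 were tested. On the deposited scale 11 of these rose, 1 fell and 24 did not pass, and the median log2 fold change was 0.79. Of all tested genes 1.81% rose and 3.5% fell on that scale, with a median of 0.23. After size factors 19 of the 36 rose and 1 fell, and the median was 0.62. For all tested genes the shares were then 7.18% and 9.91% and the median was 0.01. Lyz2 of these lists is also a monocyte marker, and monocytes transcribe many of the surface genes. As with the 9 genes, BAFF tumour 1 was the highest library for 15 of the 36 as deposited, against 11.2% of all tested genes. The counts of the 36 changed with the library left out, as did those of all genes. Without BAFF tumour 1 limma called 0 of the 36 on the deposited scale, where 258 of the 12824 tested genes were called. At an unadjusted p under 0.05 that fit had 18 of the 36 and 1211 of all tested genes. Without BAFF tumour 2 or BAFF tumour 3 limma called 3 each, where 218 and 167 of all genes were called, and without control tumour 2 it called 1, where 315 were. Without control tumour 3 it called 13, where 1171 were. Without control tumour 1 it called 33, where 5192 were.

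Genes of the primary granules, which are filled in bone marrow precursors, were near the limit of detection. Mpo, myeloperoxidase, was at or under 0.290 CPM in every library and Ms4a3 at or under 0.254 CPM. Prtn3, proteinase 3, had 1.55, 1.63 and 1.88 CPM in BAFF tumour libraries, against 1.17, 1.54 and 1.06 CPM in control tumour libraries, and Serpinb1a had 1.76, 2.61 and 2.57 CPM in BAFF tumour libraries, against 2.01, 0.843 and 1.27 CPM in control tumour libraries. Neither passed (limma adjusted p = 0.682 for Prtn3 and 0.417 for Serpinb1a).

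Of the secondary and tertiary granule genes, 3 of 7 tested rose and 0 fell, where 1.81% of all tested genes rose and 3.5% fell. Cd177, a surface protein of neutrophils, had 31.5, 23.7 and 33.4 CPM in BAFF tumour libraries, against 12.4, 9.13 and 10.4 CPM in control tumour libraries, and rose by 1.39 ± 0.32 on the log2 scale (SE; limma adjusted p = 0.000918). Its groups were well apart, and BAFF tumour 1 was not its highest library. Slpi, a secreted inhibitor of leukocyte elastase, had 48.9, 38.6 and 20.1 CPM in BAFF tumour libraries, against 18.5, 9.97 and 13.97 CPM in control tumour libraries (log2 1.23 ± 0.32; limma adjusted p = 0.00426). Hp, haptoglobin, rose as well (log2 1.09 ± 0.32; limma adjusted p = 0.0181). With 1 library left out on the deposited scale, Cd177 and Slpi passed in 3 of 6 fits each and Hp in 2. In these fits 34 to 4615 of all tested genes rose. After size factors Cd177 and Hp passed whichever library was left out, and Slpi passed in 2 of those 6 fits, where 510 to 774 of all tested genes rose. Ltf, lactoferrin, a defining secondary granule gene, was at or under 0.691 CPM in every library, and Ly6g, Camp, Ngp and Cxcr1 were not analysed here. Lyz2, the most abundant member, did not pass (log2 0.57 ± 0.33; limma adjusted p = 0.388).

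Of the mature surface and signalling genes, 7 of 26 tested rose, 1 fell and 18 did not pass, where 1.81% of all tested genes rose and 3.5% fell. Il1r2, a decoy receptor for interleukin 1, had 82.5, 42.3 and 37.5 CPM in BAFF tumour libraries, against 26.8, 13.2 and 13.1 CPM in control tumour libraries (log2 1.55 ± 0.32, SE; limma adjusted p = 0.000165). Like S100a8 it was highest in BAFF tumour 1, but its groups did not overlap. Trem1, an activating receptor of neutrophils and monocytes, rose by 1.13 ± 0.32 on the log2 scale (limma adjusted p = 0.0128), the sorting receptor gene Sorl1 by 1.15 ± 0.32 (limma adjusted p = 0.0107) and the C-type lectin gene Clec4d by 1.12 ± 0.32 (limma adjusted p = 0.0141). Il1b and Ptgs2, the most abundant members, did not pass (log2 0.77 ± 0.33 for each; limma adjusted p = 0.180 and 0.181). The gene that fell was Padi4, a protein arginine deiminase of neutrophil extracellular traps, with 6.74, 5.69 and 5.73 CPM in BAFF tumour libraries, against 20.9, 14.6 and 6.77 CPM in control tumour libraries (log2 -0.98 ± 0.31; limma adjusted p = 0.0392). Padi4 was chosen after its values were seen.

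The stefin A genes encode small protease inhibitors of neutrophils, and 2 of 10 entries were in the table. Gm5483 had 6.63, 1.30 and 1.96 CPM in BAFF tumour libraries, against 1.55, 0.281 and 0.212 CPM in control tumour libraries (log2 1.24 ± 0.30; limma adjusted p = 0.00193, and 0.0598 after size factors). Stfa2l1, below the level for testing, had 3.32, 0.508 and 0.592 CPM in BAFF tumour libraries, against 0.436 CPM in control tumour 1 and 0 in control tumours 2 and 3. Both followed Lcn2 in standing far higher in BAFF tumour 1 than elsewhere. The genes of this cluster are close copies, so how reads were divided among them is uncertain.

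**Figure D5:**
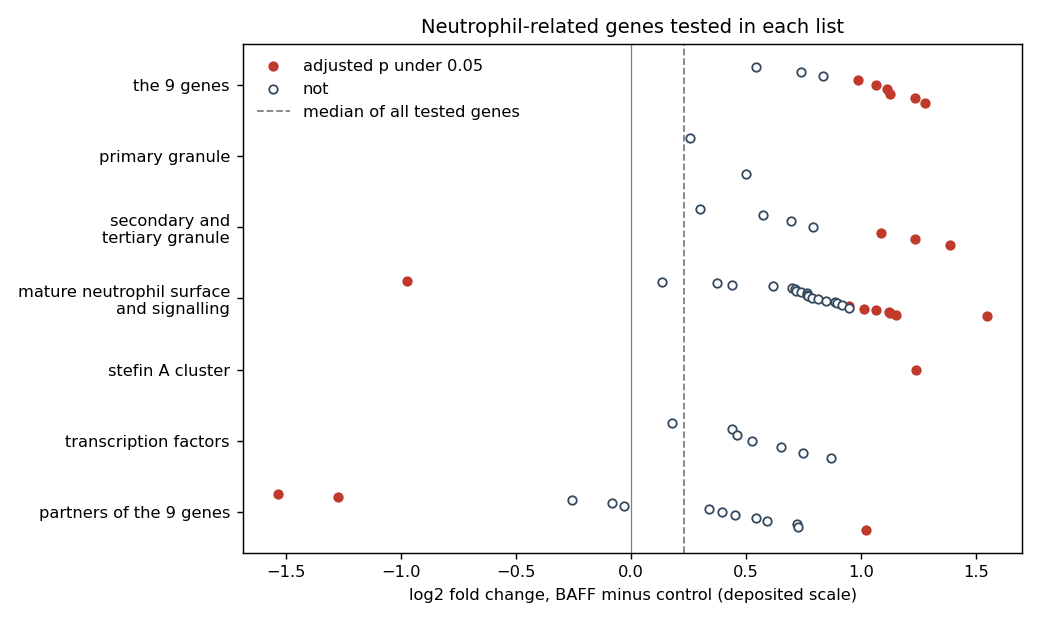
Log2 fold change on the deposited scale, BAFF tumour minus control tumour libraries, of each tested gene of the 9 and of the 6 lists related to them, red where the adjusted p was under 0.05. The dashed line marks the median of all tested genes at 0.23, and nearly all granule and surface genes lie to its right.

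Of 7 tested transcription factor genes of granulocytes, 0 rose and 0 fell in limma on the deposited scale, with a median log2 fold change of 0.52. For all tested genes the shares were 1.81% and 3.5%, and the median was 0.23. Every BAFF tumour library was above every control tumour library for 4 of the 7, against 11.4% of all tested genes. After size factors it was 5 of the 7, against 17.3%. At an unadjusted p under 0.05, 3 of the 7 were higher, where 1223 of the 12824 tested genes were. Cebpb, which drives emergency granulocyte production, had 146, 168 and 130 CPM in BAFF tumour libraries, against 75.5, 80.7 and 84.2 CPM in control tumour libraries (log2 0.87 ± 0.32, SE; limma adjusted p = 0.0944). Its groups were apart, but it did not pass after size factors either (limma adjusted p = 0.0593). Per1, a circadian clock gene, was the other abundant member (log2 0.75 ± 0.32, limma adjusted p = 0.187). After size factors 2 of the 7 rose, Per1 and Runx1, where 7.18% of all tested genes did. Cebpe, the factor of secondary granule genes, was at 0.878 to 2.14 CPM in the 6 libraries.

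Among the ligands, receptors, enzymes and inhibitors that act with the 9 gene products, 1 of 13 tested genes rose, 2 fell and 10 did not pass. Of all tested genes 1.81% rose and 3.5% fell. Cxcl2, a ligand of Cxcr2, had 1123, 1191 and 799 CPM in BAFF tumour libraries, against 742, 439 and 391 CPM in control tumour libraries (log2 1.02 ± 0.33, SE; limma adjusted p = 0.0361). Its groups did not overlap. Timp2, a tissue inhibitor of metalloproteinases, had 33.4, 28.3 and 31.98 CPM in BAFF tumour libraries, against 141, 64.5 and 49.95 CPM in control tumour libraries (log2 -1.28 ± 0.32; limma adjusted p = 0.00301), and Retnla is given above. Tlr4, a receptor for calprotectin, did not pass (log2 0.40 ± 0.32; limma adjusted p = 0.561). Csf3, the ligand of the Csf3r product, was at 0.212 to 1.99 CPM in the 6 libraries.

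Markers of other cell types moved with the groups, and their part in the results was not tested. Beside the counts below, 1.81% of all tested genes rose and 3.5% fell as deposited, and 9.91% fell after size factors. Of 7 melanoma cell markers 6 fell, and their sum was 72.7 to 154 CPM in BAFF tumour libraries, against 382 to 654 CPM in control tumour libraries. Of 7 macrophage markers 2 fell as deposited and 6 after size factors, with a sum of 2140 to 2382 CPM in BAFF tumour libraries, against 2167 to 4495 CPM in control tumour libraries. The 6 eosinophil markers in the table summed to 23.01 to 31.4 CPM in BAFF tumour libraries, against 16.7 to 23.9 CPM in control tumour libraries, and 1 of 3 tested rose. Of 7 dendritic cell markers 2 rose and 0 fell, with sums of 37.6 to 47.6 CPM in BAFF tumour libraries, against 19.7 to 40.1 CPM in control tumour libraries. The 10 T and NK cell markers summed to 12.2 to 22.1 CPM in BAFF tumour libraries, against 9.74 to 28.98 CPM in control tumour libraries, with 0 called by limma, also at an unadjusted p under 0.05. Of 4 tested B and plasma cell markers 2 fell, with sums of 33.2 to 47.8 CPM in BAFF tumour libraries, against 41.9 to 95.9 CPM in control tumour libraries. Fibroblast and endothelial markers summed to 65.4 to 96.6 CPM in BAFF tumour libraries, against 45.9 to 265 CPM in control tumour libraries, and red cell and platelet markers to 67.9 to 139.8 CPM in BAFF tumour libraries, against 100.8 to 238 CPM in control tumour libraries, with 0 called by limma in either list as deposited. At an unadjusted p under 0.05 the first had 2 higher and 2 lower, and the second 3 lower. Of the 12824 tested genes 1223 were higher and 830 lower at that level. Of 10 neutrophil markers outside the 9 genes 6 were in the table. They summed to 76.4 to 130.5 CPM in BAFF tumour libraries, against 33.7 to 68.5 CPM in control tumour libraries. Most of this was Il1r2 and Cd177, given above, the 2 of 4 tested that rose, while 1, Padi4, fell. Mmp9 did not pass (log2 0.30 ± 0.31, SE; limma adjusted p = 0.642) and was highest in control tumour 1, at 7.72 CPM.

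Outside the 9 genes, 2 of 9089 genes averaging at least 5 CPM put all 15 library pairs in the order of S100a9. They were Tmem119 and Slc44a1. Tmem119, known as a microglial surface marker, had 12.9, 5.29 and 3.16 CPM in BAFF tumour libraries, against 6.29, 2.95 and 4.02 CPM in control tumour libraries, and Slc44a1, a choline transporter gene, had 25.4, 17.2 and 13.03 CPM in BAFF tumour libraries, against 21.7, 11.2 and 14.8 CPM in control tumour libraries. Neither passed in limma on the deposited scale (adjusted p = 0.496 for Tmem119 and 0.751 for Slc44a1).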

How the data were processed

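The authors deposited 1 gene table in CPM, identified by its values, since low values within a library are mostly whole multiples of 1 step. Between 84.7% and 86.3% of low values (up to 20 reads) lay within 0.02 of a whole multiple, too few to recover reads for all genes, so no count model was used. Of the 54 values of the 9 genes 52 were whole, and these steps gave their reads. The TruSeq v2 kit does not mark strand, per the labels' protocols. In GENCODE M21 no exon of another gene overlapped the 9. The submitters' processing notes name Partek, STAR (2.4.1d) and Bowtie2 (2.2.5). No source used here gives their roles, the genome build or the counting rule. The misspelled control column ending in 2 was taken as control tumour 2. Libraries of a group differed by more than sampling noise (chi-square per degree of freedom 2.20 or more).

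The test was limma-trend (limma 3.58.1, R 4.3.3) on log2(CPM + 1) of deposited values, not rescaled, for the 12824 genes averaging at least 1 CPM, adjusted over all of them (Benjamini-Hochberg) with a threshold of 0.05. Adding 1 understates fold changes of low genes. Size factors are median-of-ratios (RLE) factors on the tested genes. Other settings were upper-quartile factors, the total of the listed genes, other filters, a pseudocount of 0.1, a block for the replicate number, and fits with libraries left out. Poisson intervals cover counting error only.

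The 9 genes, the lists and the tests were chosen with earlier results of these data known, so no list was tested as a set. Beyond the 9, the text names from each related list up to 4 called genes with the smallest p and the 2 most abundant, and non-members ordered like S100a9. Genes named outside this rule (Mpo, Ms4a3, Ltf, Mmp9, Padi4, Cebpe, Runx1, Csf3) were chosen after their values were seen.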

Additional observations from a re-analysis of the deposited data

How the results depend on the processing

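Each of the 9 genes was higher in BAFF tumour libraries in every limma fit run, with 3 exceptions. These came without control tumours 2 and 3 together, where the log2 fold changes of S100a8, S100a9 and Mmp8 were -0.17, -0.13 and -0.027, and in that fit 0 of the 9 and 1861 of all genes passed. The count of the 9 that passed, 6 as deposited and 4 after size factors, became 2 with upper-quartile factors and 2 on the listed-gene total. It ranged over 0 to 9 when 1 library was left out, and over 2 to 5 with size factors as well. Of the other neutrophil genes 12 were called as deposited, 20 after size factors, 21 with size factors and the replicate block, 0 to 33 with 1 library left out and 13 to 22 with size factors as well (19 without control tumour 1). Over all genes the count of 681 became 2192 after size factors, 2080 with upper-quartile factors, 1815 on the listed-gene total, 316 at a mean of 5 CPM or more, and 1940 with size factors and the replicate block. It ranged over 167 to 5192 with 1 library left out and, with size factors as well, was 1505, 1334 and 1806 without BAFF tumours 1, 2 and 3 and 1821, 1723 and 1816 without control tumours 1, 2 and 3. The cause of these shifts was not tested. The replicate number as a block left the count of the 9 at 6 as deposited, gave 6 after size factors, and gave 10 other neutrophil genes and 608 of all genes as deposited. The deviations of libraries that share a number had correlations of -0.06, 0.06 and -0.04. Those of libraries with different numbers ran from -0.08 to 0.11. With 3 libraries in each group such correlations cannot decide whether the numbers pair the samples. The median log2 difference of the 9 genes relative to monocyte markers was 0.61, and 0.63, 0.64 and 0.81 relative to Lyz2, Itgam or Csf1r alone. Each of these genes is part of the marker sum, and Lyz2 holds about 492 to 586 of each 1000 CPM of it. The values are therefore not independent of each other. The median share of library pairs that 2 of the 9 genes ordered alike was 80%, and 66.7% relative to monocyte markers. Depth limits Lcn2, Cxcr2 and G0s2 most, which rest on 1 to 18 reads in control tumours 2 and 3.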
